A study of Mus musculus with 22 samples.

Results

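Mice given dextran sulfate sodium (DSS) while drinking either of 2 deep sea waters, HMLS or TM, were compared as 1 pooled group with mice given DSS in distilled water. The comparison takes the 4 HMLS and 5 TM libraries against the 5 DSS libraries, 14 of the 22 libraries sequenced from the colon of wild type BALB/c mice, and addresses what the waters have in common in colitis. The HMLS mice (replicates 3, 6, 7 and 8) drank the water of that name, and the TM mice (replicates 3, 5, 6, 7 and 8) the water of that name, for 3 weeks from 5 weeks of age, and both received 5% DSS in the same water during the last week. The DSS mice (replicates 1, 2, 5, 6 and 7) drank distilled water for 3 weeks and received 5% DSS in it during the last week. The other 8 libraries come from control mice (CON) on distilled water without DSS, and their levels are given only to place the values. The labels do not spell out the water names. The sources used here describe no mice given deep sea water without DSS, so an effect of the water on colitis and an effect of the water on the colon in itself cannot be told apart. The labels do not state whether every library is a separate mouse, so p-values measure only the spread between libraries, which may be technical.

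DSS strips and ulcerates the surface epithelium of the colon, lets luminal bacteria reach the tissue and draws in neutrophils and macrophages. The epithelium answers with secreted lectins and other antimicrobial proteins, with stress and early response genes and with a shift towards glycolysis, while transport enzymes of the mature surface cells are often lost. Deep sea water is rich in magnesium, calcium and potassium, and the study asked about its anti-inflammatory properties in the inflamed intestine. Values are FPKM, fragments per transcript length and library size, and a difference is on the log2(FPKM + 1) scale, deep sea water minus DSS, tested with limma across all genes with Benjamini-Hochberg adjusted p-values.

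The 14 libraries held colon markers, and markers of colitis to differing extents. The colonocyte carbonic anhydrase Car1 lay at 1973 to 6987 FPKM in deep sea water and at 1948 to 6185 FPKM in DSS, and the goblet cell mucin Muc2 at 1140.2 to 5345 FPKM in deep sea water and at 2118 to 6368 FPKM in DSS. The antimicrobial lectin Reg3b lay at 4362 to 14454 FPKM in deep sea water and at 7637 to 25761 FPKM in DSS, all above the CON range of 422 to 1764 FPKM. The iron-binding Lcn2 was above the CON range of 0.223 to 1.14 FPKM in all but HMLS7, and the nitric oxide synthase Nos2 lay within the CON range of 0.263 to 1.62 FPKM in HMLS3, HMLS7, HMLS8 and DSS5. Mapped reads numbered 43906083 to 63470017 per deep sea water library and 39580032 to 53799452 per DSS library. The percent of reads mapped was 90.8 ± 1.33 in deep sea water (SD, n = 9) and 86.6 ± 2.81 in DSS (SD, n = 5), a difference of 4.22 percentage points (two-sided exact permutation test over 2002 splits, p = 0.000999, adjusted p = 0.004 over 4 library measures). HMLS6 (88.8) was the only deep sea water library under the highest DSS library (88.9).

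No gene passed the threshold of an adjusted p under 0.05 when the pooled deep sea waters were set against DSS. Of 13341 genes tested, 0 were called by limma (0% of genes), and 253 had an unadjusted p under 0.05 (1.9%, where an even spread of p gives 5%), 134 of them higher (1%) and 119 lower (0.892%) in deep sea water. The smallest adjusted p was 0.999976 (Ggt1). The sign was near balance, with 6905 genes higher (51.8%) and 6436 lower (48.2%), and the median difference over all genes was 0.0054. With the percent of reads mapped as a covariate limma again called 0 genes (smallest adjusted p 0.578), and 920 had an unadjusted p under 0.05 (6.9%). The percent mapped nearly separates the groups, so a difference by water and one by mapping rate cannot be told apart. Values with this covariate, here and below, carry that limit. Without DSS replicate 5 and without TM replicate 3 the number at an unadjusted p under 0.05 was 670 (5.04%) and 406 (3.06%), with 0 called in both.

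The pooled differences of most genes were bounded, which does not bound each water. The 95% interval of 12782 genes (95.8%) lay inside a 2-fold change in either direction on the log2(FPKM + 1) scale, which compresses the changes of genes near 1 FPKM. The middle 90% of the differences ran from -0.25 to 0.24. The waters were also compared singly. HMLS against TM gave 1260 genes at an unadjusted p under 0.05 (9.44%), HMLS against DSS 740 (5.55%) and TM against DSS 367 (2.75%). None of these 3 comparisons had a call over all genes (0% each, smallest adjusted p by limma 0.278, 0.849 and 0.999957). HMLS against DSS and TM against DSS share the DSS libraries, so their values are set side by side below and HMLS against TM is the test of whether the waters differ.

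**Figure D1:**
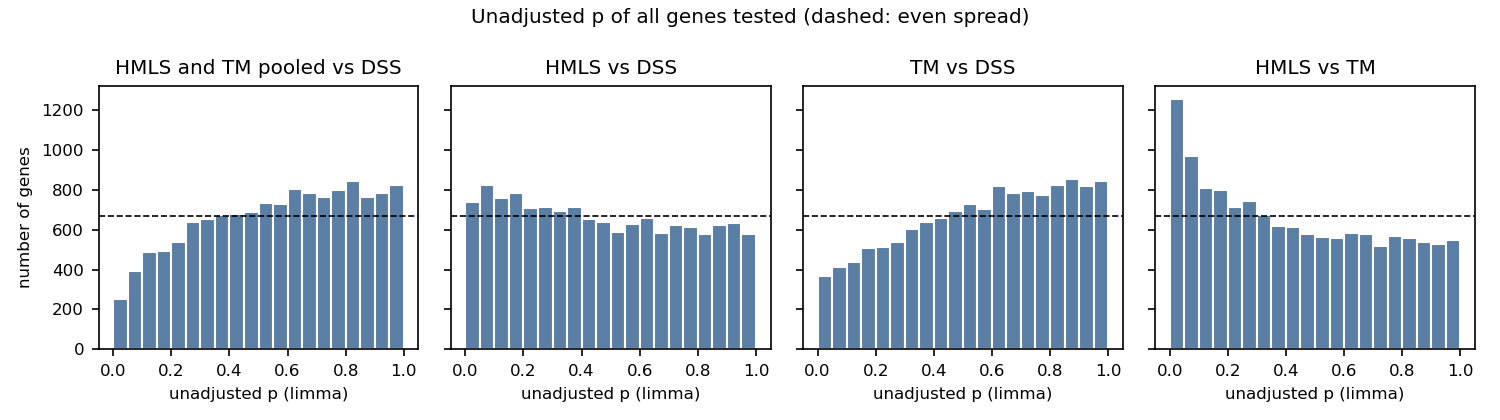
Number of genes (y axis) by unadjusted limma p in bins from 0 to 1 (x axis) for the pooled deep sea waters against DSS, HMLS against DSS, TM against DSS and HMLS against TM. The dashed line is an even spread. The lowest bins hold fewer genes than the line in the pooled comparison (253 under 0.05) and more in HMLS against TM (1260 under 0.05).

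The genes with the smallest p-values are given as values, since none was called. They were the 12 genes in each direction with the smallest limma p, counting genes whose higher group averaged 1 FPKM or more, and their unadjusted p-values ran from 0.000164 to 0.00803. Predicted genes, pseudogenes and clone names were passed over. Only Ggt1 differed by at least 2-fold on this scale, and the intervals of 21 of the 24 lay inside 2-fold. In 1 of the 24, Cdkn2d, the waters had an unadjusted p under 0.05 between them (0.0356 by limma, adjusted p = 0.506), against 9.44% of all genes. Choice by the pooled p favours genes in which the waters agree, so this count is not support for a shared effect.

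Ggt1 encodes the surface enzyme that starts the breakdown of extracellular glutathione (GRCm38 chr10:75561604-75586200). Its level was 6.16, 4.35, 9.27 and 4.37 FPKM in the HMLS libraries and 5.02, 3.46, 2.92, 4.71 and 6.03 FPKM in the TM libraries, against 11.3, 15.3, 9.32, 13.8 and 7.27 FPKM in the DSS libraries. Of the deep sea water libraries only HMLS7 lay within the DSS range. The log2 difference was -1.02 ± 0.209 (SE, 95% interval -1.47 to -0.58, adjusted p = 0.999976 by limma), with -0.83 for HMLS and -1.18 for TM, and CON averaged 6.66 ± 3.31 FPKM. Jund, an AP-1 transcription factor (chr8:70698949-70700616), was at 75.01, 63.2, 62.6 and 87.4 FPKM in the HMLS libraries and 59.9, 66.4, 68.5, 68.04 and 73.4 FPKM in the TM libraries, against 79.2, 131, 93.5, 91.6 and 84.3 FPKM in the DSS libraries. All TM libraries and all HMLS libraries but HMLS8 lay below every DSS library. Its log2 difference was -0.45 ± 0.121 (SE), with -0.40 for HMLS and -0.49 for TM, and CON averaged 77.4 FPKM.

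Mylip encodes the ubiquitin ligase that marks the LDL receptor for degradation (chr13:45389742-45412022). It was at 10.03, 9.95, 9.77 and 8.06 FPKM in the HMLS libraries and 6.92, 9.26, 14.1, 6.83 and 12.4 FPKM in the TM libraries, against 6.40, 6.19, 6.53, 4.87 and 6.65 FPKM in the DSS libraries. The 9 deep sea water libraries all lay above the 5 DSS libraries, and CON lay at 8.91 to 12.4 FPKM. The log2 difference was 0.56 ± 0.15 (SE, 95% interval 0.24 to 0.88), with 0.55 for HMLS and 0.57 for TM. Pth1r, the receptor of parathyroid hormone and its related peptide (chr9:110722085-110747145), was at 2.09, 1.99, 1.91 and 1.67 FPKM in the HMLS libraries and 2.82, 1.995, 1.58, 1.84 and 1.96 FPKM in the TM libraries, against 1.28, 0.557, 1.03, 1.57 and 1.28 FPKM in the DSS libraries. The groups did not overlap, and CON lay at 2.06 to 4.47 FPKM. Its log2 difference was 0.49 ± 0.132 (SE). Fxyd7, a small regulator of the sodium pump, was at 3.62, 2.39, 2.18 and 2.43 FPKM in the HMLS libraries and 3.51, 3.25, 1.86, 3.02 and 2.17 FPKM in the TM libraries, against 0.717, 0.3298, 1.51, 2.398 and 1.65 FPKM in the DSS libraries. The groups overlapped through DSS6, and the difference was 0.74 ± 0.199 (SE). CON averaged 1.72 FPKM, between DSS (1.32) and deep sea water (2.71).

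Genes whose groups did not overlap at all numbered 4 of 13341 with every deep sea water library above every DSS library (0.03%) and 1 with every one below (0.0075%). The first were Mylip, Pth1r, the ribosomal protein gene Rpl37 and Cox7a2l, a factor for respiratory supercomplexes, and the last was Pcdh17, a protocadherin of cell adhesion. Under random labels each such order arises in 1 of 2002 splits, so these few genes among 13341 are not support for a difference. Cox7a2l lay outside the rule and was named after its values were seen. It was at 226, 211, 215 and 238 FPKM in the HMLS libraries and 211, 214, 248, 216 and 241 FPKM in the TM libraries, against 191, 208, 206, 188 and 174 FPKM in the DSS libraries, a difference of 0.22 ± 0.0819 (SE). Rpl37 was at 237, 268, 250.4 and 278 FPKM in the HMLS libraries and 268, 265, 321, 251 and 291 FPKM in the TM libraries, against 224, 233, 227, 231 and 179 FPKM in the DSS libraries, with DSS7 the lowest of all, and its reads may be shared with near-identical pseudogene copies. Pcdh17 was at 0.901, 0.697, 0.964 and 0.637 FPKM in the HMLS libraries and 0.593, 0.669, 0.984, 0.768 and 0.6904 FPKM in the TM libraries, against 1.53, 1.34, 0.996, 1.11 and 1.33 FPKM in the DSS libraries, low in every library. CON averaged 229 FPKM for Cox7a2l and 270 FPKM for Rpl37. For Pcdh17 CON averaged 1.82 FPKM, and the DSS mean (1.26) lay nearer to it than the deep sea water mean (0.767).

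The other leading genes higher in deep sea water had differences of 0.32 to 0.57. They included Cdk5rap1 (0.38 ± 0.105), which modifies mitochondrial transfer RNAs, Ssbp1 (0.40 ± 0.119), which binds single-stranded mitochondrial DNA, and the nucleolar chaperone Npm1 (0.34 ± 0.11). They also included the translation factor Eif2a (0.32 ± 0.104), the small nucleolar RNA host gene Snhg6 (0.55 ± 0.167), Haus1 of the mitotic spindle (0.57 ± 0.176), the G protein subunit Gng10 (0.35 ± 0.11) and the membrane-bending protein Bin1 (0.33 ± 0.106). Mean FPKM in CON, DSS and deep sea water follow, in this order. Cdk5rap1 had 5.88, 4.49 and 6.12, Ssbp1 11.7, 11.6 and 15.5, Npm1 139, 122 and 155 and Eif2a 20.7, 20.5 and 25.6. Snhg6 had 11.2, 12.8 and 18.8, Haus1 4.69, 3.28 and 5.32, Gng10 18.7, 12.1 and 15.6 and Bin1 6.93, 4.76 and 6.25. Among genes lower in deep sea water were the cell cycle inhibitor Cdkn2d (-0.45 ± 0.132), Tyms, which makes thymidylate (-0.35 ± 0.116), and the secreted protease Klk14 (-0.72 ± 0.222). The ubiquitin ligase Trim27 (-0.37 ± 0.104), the deubiquitinase Otud3 (-0.41 ± 0.125), the raft protein Mall (-0.38 ± 0.118), Mbd6 (-0.37 ± 0.113), the Nogo receptor Rtn4r (-0.54 ± 0.173) and the actin nucleator Spire2 (-0.38 ± 0.125) were the others (all SE). In the same order of CON, DSS and deep sea water, Cdkn2d averaged 5.89, 8.13 and 5.76, Tyms 15.8, 19.1 and 14.6 and Klk14 20.6, 39.7 and 24.1. Trim27 had 12.9, 18.6 and 14.2, Otud3 7.17, 9.81 and 7.13 and Mall 54.1, 104 and 79.9. Mbd6 had 9.51, 17.5 and 13.3, Rtn4r 3.99, 2.77 and 1.62 and Spire2 21.4, 28.1 and 21.1. Deep sea water thus did not lie on the CON side of DSS in every leading gene. All 24 kept their sign in each of the 547 values recomputed under other settings, and none was called in any of them. The choice of genes by p favours such stability and it is not support for the differences.

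**Figure D2:**
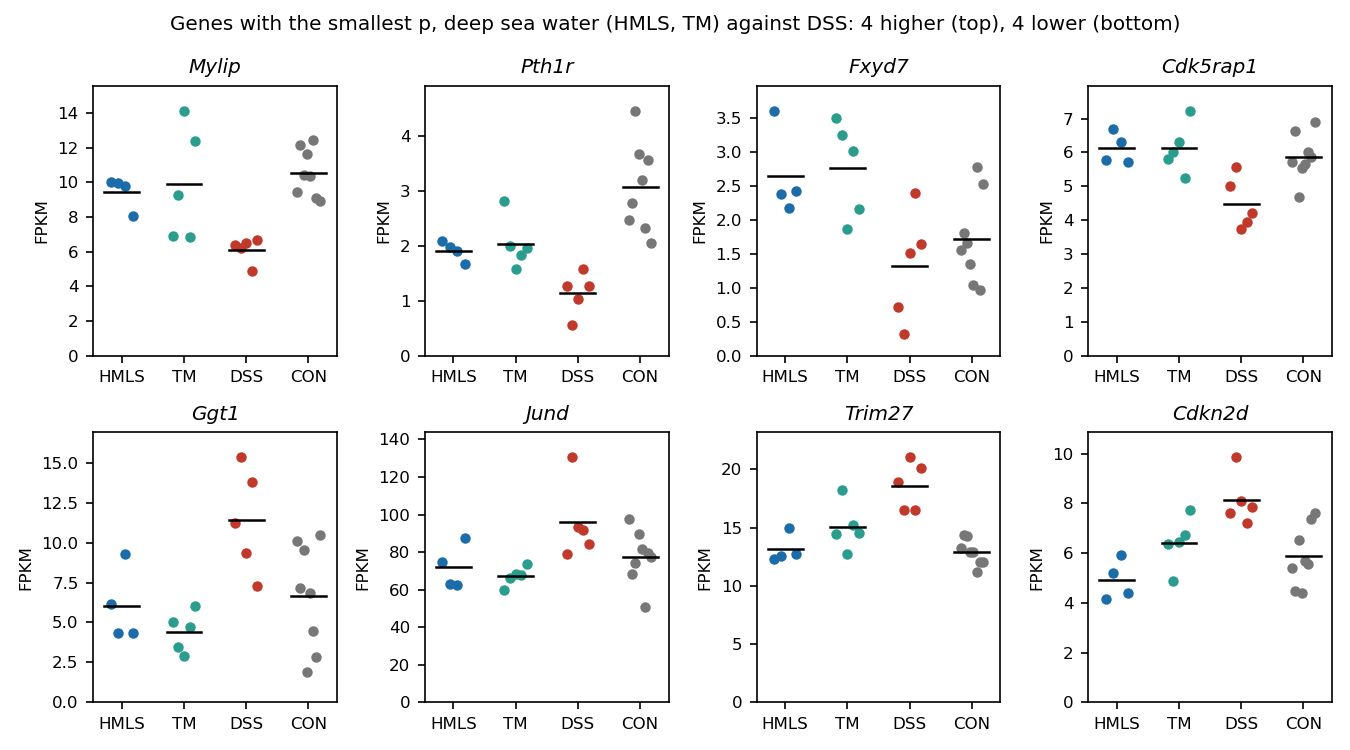
FPKM (y axis, from 0) of the 4 genes with the smallest p higher and the 4 lower in deep sea water, in each library of HMLS, TM, DSS and CON (x axis). Points are libraries and bars are group means. In Mylip and Pth1r all HMLS and TM points lie above all DSS points, and in the other 6 the groups overlap.

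Most antimicrobial and acute-phase genes had lower means in deep sea water than in DSS, and none was called. This list and those below were chosen with earlier results of these data known, so counts by sign or p are not support for a difference. Of 21 tested, 19 had a negative difference and 2 a positive one, with a median of -0.41, against 0.0054 over all genes, and 1 (Reg3b) had an unadjusted p under 0.05. The median was -0.92 for HMLS and -0.10 for TM, and 1 of the 21 was higher than DSS in HMLS against 8 in TM. Reg3b, an antimicrobial lectin, was at 4362, 5384, 5787 and 14454 FPKM in the HMLS libraries and 12530.2, 8762, 6769, 13843 and 5085 FPKM in the TM libraries, against 25761, 15827, 7637, 10982 and 19958 FPKM in the DSS libraries. DSS5 and DSS6 lay within the deep sea water range, and the other 3 DSS libraries above it. The log2 difference was -0.92 ± 0.339 (SE, 95% interval -1.64 to -0.20, unadjusted p = 0.0156, adjusted p = 0.999976 by limma), with -1.14 for HMLS and -0.74 for TM. The related lectins Reg3g and Reg3a, whose reads may be partly shared with Reg3b, had differences of -0.98 ± 0.562 and -0.84 ± 0.493, and the acute-phase gene Saa1 of -0.62 ± 0.384 (SE). In whole tissue fewer cells of a type and less RNA per cell cannot be told apart.

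Markers of inflammation overlapped between the groups. Lcn2, which withholds iron from bacteria, was at 13.02, 7.31, 0.1804 and 5.13 FPKM in the HMLS libraries and 31.1, 48.4, 8.58, 17.9 and 8.65 FPKM in the TM libraries, against 17.9, 1.397, 15.8, 2.12 and 127 FPKM in the DSS libraries. DSS7 alone was above all other libraries and HMLS7 the lowest. Its difference of -0.19 ± 0.957 (SE) had a 95% interval of -2.24 to 1.87, and it was 0.65 without DSS replicate 7, 0.22 without HMLS replicate 7 and 0.72 with the percent of reads mapped as a covariate. The calprotectin genes S100a8 and S100a9 had differences of 0.27 ± 0.732 and 0.029 ± 0.764, the cytokine Il1b of 0.17 ± 0.503, the chemokine Cxcl1 of 0.41 ± 0.484, the prostaglandin synthase Ptgs2 of 0.011 ± 0.375 and the protease Mmp10 of -0.19 ± 0.515 (SE). The sign of each of these 7 genes changed under at least 1 other setting. In all 7 the HMLS value was negative and the TM value positive. They were -1.21 and 0.64 for Lcn2, -0.099 and 0.57 for S100a8 and -0.73 and 0.64 for S100a9. Il1b had -0.20 and 0.46, Ptgs2 -0.23 and 0.21 and Mmp10 -0.65 and 0.17. Cxcl1 had -0.32 and 0.997 (HMLS against TM, unadjusted p = 0.0173 by limma, adjusted p = 0.468). The neutrophil list had 4 of 12 markers above the filter, and its summed level lay between 2.44 and 103.4 FPKM in deep sea water and between 3.61 and 79.1 FPKM in DSS.

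Of 13 acute inflammation genes tested 10 were positive and 3 negative, with a median of 0.034, -0.20 for HMLS and 0.33 for TM. This median moved with single libraries, being 0.43 without DSS replicate 7 and -0.0055 without DSS replicate 2. Ccl20, an epithelial chemokine that attracts dendritic cells and lymphocytes, had the smallest p among them. It was at 4.52, 19.0, 5.39 and 5.90 FPKM in the HMLS libraries and 5.77, 21.9, 6.71, 4.79 and 3.41 FPKM in the TM libraries, against 2.16, 1.78, 5.95, 2.701 and 2.201 FPKM in the DSS libraries. DSS5 lay within the deep sea water range, the other 4 DSS libraries were below it, and HMLS6 and TM5 were the highest. The difference was 1.12 ± 0.371 (SE, 95% interval 0.33 to 1.90, unadjusted p = 0.00841 by limma), with 1.16 for HMLS and 1.08 for TM. CON averaged 4.08 FPKM, between DSS (2.96) and deep sea water (8.60). The receptor antagonist Il1rn had a difference of 0.45 ± 0.25 and the cytokine Tnf of -0.42 ± 0.263 (SE). Tnf had -0.84 for HMLS and -0.077 for TM.

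For several colitis genes the 2 waters lay on opposite sides of DSS. Nos2, the inducible nitric oxide synthase, was at 0.911, 1.85, 1.25 and 0.891 FPKM in the HMLS libraries and 8.58, 28.2, 5.99, 3.88 and 7.09 FPKM in the TM libraries, against 12.6, 7.41, 1.26, 4.94 and 21.3 FPKM in the DSS libraries. All HMLS libraries lay below all TM libraries. Its pooled difference was -0.70 ± 0.647 (SE), with -1.88 for HMLS and 0.24 for TM (HMLS against TM, unadjusted p = 0.00225 by limma, adjusted p = 0.407). The pore-forming claudin Cldn2 had -0.67 for HMLS and 0.51 for TM, and -0.015 ± 0.346 pooled. It was at 24.8, 15.7, 19.9 and 36.4 FPKM in the HMLS libraries and 68.6, 52.9, 38.4, 46.8 and 66.3 FPKM in the TM libraries, against 44.9, 62.7, 44.8, 26.7 and 21.1 FPKM in the DSS libraries, with every TM library above every HMLS library. HMLS6 and HMLS7 lay below every DSS library and TM3 and TM8 above every one. Of the 23 genes tested of a panel of 24 colitis and colon epithelium genes, 8 had an unadjusted p under 0.05 in HMLS against TM and none an adjusted one, while 1 (Reg3b) had an unadjusted p under 0.05 in the pooled comparison. The interval of the pooled difference lay inside 2-fold for 8 of the 23. The stem cell receptor Lgr5 was below the filter, at 0.0269 to 0.456 FPKM in deep sea water and 0.0409 to 0.300 FPKM in DSS, all under the CON range of 1.42 to 2.96 FPKM.

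**Figure D3:**
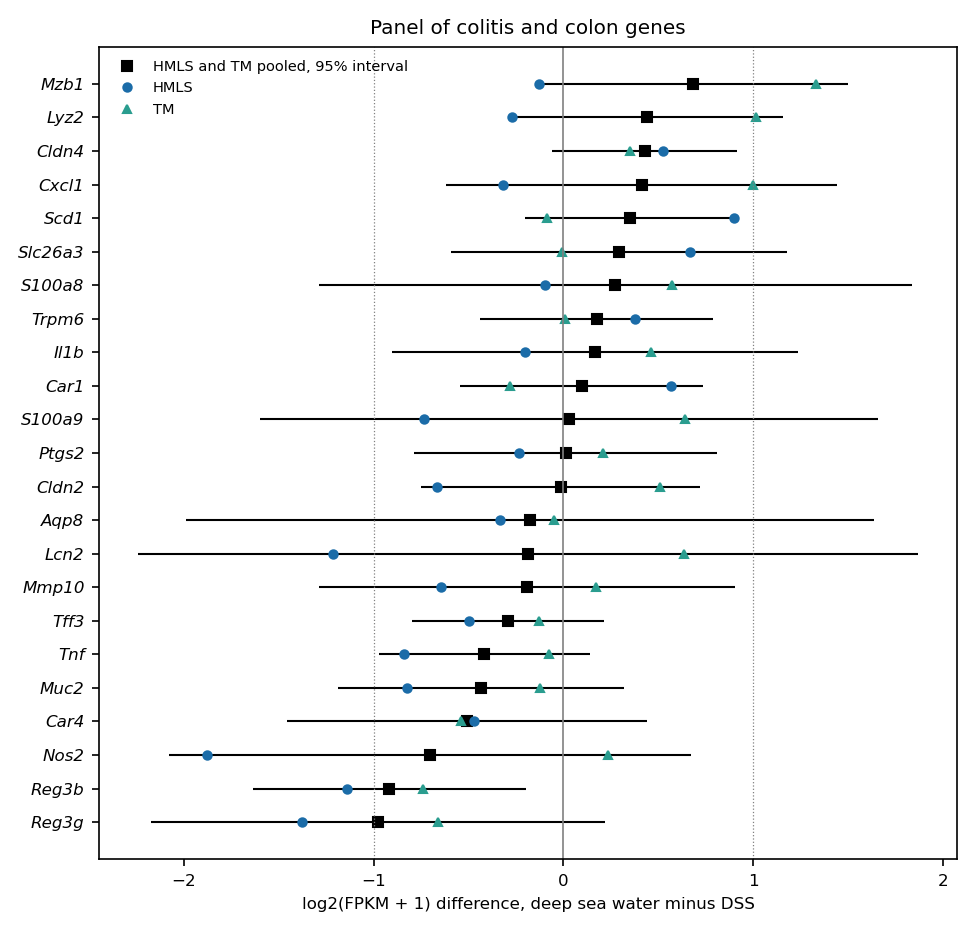
Log2(FPKM + 1) difference from DSS (x axis) of 23 panel genes (y axis), as squares with 95% intervals for the pooled deep sea waters, circles for HMLS and triangles for TM. Dotted lines mark a 2-fold change on this scale. The interval of Reg3b (-1.64 to -0.20) is the only one that leaves out 0, and HMLS and TM lie on opposite sides of 0 for genes such as Nos2 (-1.88 and 0.24) and Cldn2 (-0.67 and 0.51).

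Macrophage and B cell markers had medians on opposite sides of DSS in the waters, while T cell markers had -0.32 for HMLS and -0.031 for TM and mast cell markers 0.12 and 0.21. These differences between lists were not tested. Of 16 macrophage markers tested 11 were positive and 5 negative, with a pooled median of 0.096, -0.41 for HMLS and 0.49 for TM. Leaving out 1 library gave a pooled median from -0.060 (without DSS replicate 2) to 0.23 (without HMLS replicate 7), and the percent of reads mapped as a covariate gave -0.13. Lyz2, the lysozyme of macrophages, was at 54.5, 30.7, 21.1 and 29.6 FPKM in the HMLS libraries and 77.3, 88.1, 117, 62.4 and 63.3 FPKM in the TM libraries, against 45.4, 34.6, 49.7, 29.03 and 38.98 FPKM in the DSS libraries. Every TM library and HMLS3 lay above every DSS library, and the other 3 HMLS libraries did not. Its pooled difference was 0.44 ± 0.338 (SE), with -0.27 for HMLS and 1.01 for TM (HMLS against TM, adjusted p = 0.278 by limma, and 0.0341 without HMLS replicate 3). The pooled value was -0.14 with the percent of reads mapped as a covariate. The B cell list had 10 of 11 positive and 1 negative, a median of 0.24, with -0.16 for HMLS and 0.60 for TM, and 0 of 11 at an unadjusted p under 0.05. Its summed level lay between 6.43 and 64.8 FPKM in deep sea water and between 10.9 and 34.1 FPKM in DSS. With the percent of reads mapped as a covariate the median of the B cell list was -0.36, and without TM replicate 6 it was 0.076. Mzb1, which plasma cells need to assemble antibodies, was at 0.163, 0.388, 0 and 0 FPKM in the HMLS libraries and 2.58, 2.53, 4.83, 1.44 and 0.581 FPKM in the TM libraries, against 0.499, 0, 0.171, 0.296 and 0.241 FPKM in the DSS libraries, with a pooled difference of 0.68 ± 0.384 (SE), -0.13 for HMLS and 1.33 for TM. The 9 plasma cell markers tested, Mzb1 among them, had 4 positive and 5 negative and a median of -0.026.

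For several of the lists below the medians of both waters lay on the same side of DSS, although no member was called. For others, such as the adipocyte, endothelial, goblet cell and proliferation lists, they lay on opposite sides. The comparisons share the DSS libraries and the lists were chosen with earlier results of these data known, so this is given as values only. Glycolysis and hypoxia genes had 25 of 29 negative, 5 of them and none of the positive ones at an unadjusted p under 0.05 (0.892% of all genes were lower at this p). The median was -0.24, -0.32 for HMLS and -0.17 for TM, and the pooled median was -0.14 without DSS replicate 2. Egln3, the hydroxylase that marks hypoxia-inducible factor for degradation, was at 10.98, 15.2, 21.7 and 9.46 FPKM in the HMLS libraries and 26.6, 19.7, 20.2, 23.7 and 15.99 FPKM in the TM libraries, against 20.2, 33.7, 18.98, 30.6 and 32.6 FPKM in the DSS libraries. The groups overlapped. Its difference was -0.58 ± 0.225 (SE, unadjusted p = 0.0198 by limma), with -0.91 for HMLS and -0.32 for TM. Between the waters Egln3 had an unadjusted p of 0.0253 by limma (adjusted p = 0.482). The differences of the carbonic anhydrase Car9, of pyruvate kinase Pkm and of Pgk1 were -0.37 ± 0.145, -0.31 ± 0.129 and -0.31 ± 0.14.

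All 16 immediate early genes tested were negative, with a median of -0.35, -0.42 for HMLS and -0.28 for TM, and 2 (Jund and Jun) had an unadjusted p under 0.05. Without DSS replicate 7 the median was -0.16, and with the percent of reads mapped as a covariate it turned to 0.032. Jun was at 77.6, 64.3, 62.99 and 70.8 FPKM in the HMLS libraries and 41.1, 69.8, 63.1, 99.1 and 87.1 FPKM in the TM libraries, against 59.4, 99.2, 108, 84.7 and 173 FPKM in the DSS libraries, with DSS7 the highest and TM3 the lowest. The phosphatase Dusp1 had a difference of -0.48 ± 0.228 and the stress factor Atf3 of -0.57 ± 0.371 (SE), or -0.20 for Atf3 without DSS replicate 2. Fatty acid and cholesterol synthesis genes had 22 of 25 negative with a median of -0.25 (-0.19 for HMLS, -0.24 for TM), and none at an unadjusted p under 0.05. The pooled median was -0.10 without DSS replicate 2 and -0.46 with the percent of reads mapped as a covariate. The master regulator Srebf2 had -0.28 ± 0.159, and the sterol enzymes Sqle, Cyp51 and Fdps -0.42 ± 0.25, -0.34 ± 0.24 and -0.49 ± 0.35. The desaturase Scd1 stood apart with 0.35 ± 0.261, being at 8.19, 21.6, 15.3 and 14.2 FPKM in the HMLS libraries and 6.53, 6.46, 6.81, 5.76 and 7.69 FPKM in the TM libraries, against 5.598, 7.26, 7.82, 7.88 and 7.13 FPKM in the DSS libraries. The 4 HMLS libraries were above all TM and DSS libraries. Scd1 had 0.90 for HMLS and -0.086 for TM (HMLS against TM, adjusted p = 0.278 by limma). Without HMLS replicate 3, Scd1 passed the limma threshold in HMLS against TM (1.22, adjusted p = 0.0153) and in HMLS against DSS (1.14, adjusted p = 0.0459).

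Fatty acid oxidation and PPAR target genes had 17 of 23 positive, 3 of them at an unadjusted p under 0.05 (1% of all genes were higher at this p), with a median of 0.17, 0.22 for HMLS and 0.13 for TM, or 0.074 pooled without DSS replicate 1. The mitochondrial oxidation enzymes Hadhb and Hadha had 0.30 ± 0.119 and 0.23 ± 0.109 and the thioesterase Acot1 0.63 ± 0.268 (SE). Fat cells express many of these genes. The adipocyte list had 13 of 16 positive with a median of 0.20, 0.69 for HMLS and -0.11 for TM, and its summed level lay between 203.03 and 816.7 FPKM in deep sea water and between 217.2 and 298.4 in DSS. Its median was 0.050 without HMLS replicate 6, 0.092 without DSS replicate 2 and 0.54 with the percent of reads mapped as a covariate. The part of fat in the oxidation list was not tested. The fatty acid transporter Cd36, of that list, had 0.62 ± 0.264 (unadjusted p = 0.0335 by limma) and Cox8b, of brown fat and muscle, 0.54 ± 0.294 (SE). Cox8b had 1.09 for HMLS and 0.10 for TM (HMLS against TM, unadjusted p = 0.00176 by limma, adjusted p = 0.407).

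Cytosolic ribosomal protein genes had 24 of 26 positive with a median of 0.17, 0.067 for HMLS and 0.24 for TM, and 2 (Rpl5, 0.24 ± 0.105, and Rpl11, 0.26 ± 0.116) at an unadjusted p under 0.05. Rpl11 was at 450.0, 415, 389 and 426 FPKM in the HMLS libraries and 544, 468, 574, 398 and 485 FPKM in the TM libraries, against 389, 399, 461, 329 and 343 FPKM in the DSS libraries. The groups overlapped through DSS2 and DSS5. All 26 intervals lay inside 2-fold. With the percent of reads mapped as a covariate the median of this list was -0.074, and without DSS replicate 7 it was 0.092. Endothelial markers had 17 of 18 positive with a median of 0.12 (-0.015 for HMLS, 0.26 for TM), which was 0.028 without DSS replicate 2 and 0.21 without DSS replicate 1. Edn1, the vasoconstrictor endothelin that epithelium also makes, was at 29.7, 31.8, 32.1 and 35.8 FPKM in the HMLS libraries and 11.3, 23.02, 31.4, 18.7 and 20.5 FPKM in the TM libraries, against 10.5, 25.9, 13.5, 11.95 and 17.2 FPKM in the DSS libraries. The 4 HMLS libraries lay above all DSS libraries, while TM overlapped DSS. Its difference was 0.68 ± 0.252 (SE, unadjusted p = 0.0154 by limma). The clotting protein Vwf had 0.39 ± 0.177.

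Smooth muscle markers had 18 of 20 positive with a median of 0.15 (0.31 for HMLS, 0.018 for TM), none at an unadjusted p under 0.05. The median was -0.047 without DSS replicate 2, 0.32 without DSS replicate 5 and 0.71 with the percent of reads mapped as a covariate. Their summed level lay between 1627 and 3985 FPKM in deep sea water and between 1143 and 3648 in DSS. Goblet cell genes had 15 of 18 negative with a median of -0.24 (-0.49 for HMLS, 0.011 for TM), and none at an unadjusted p under 0.05. Without DSS replicate 2 that median was -0.12, and with the percent of reads mapped as a covariate -0.70. Muc2 had -0.43 ± 0.354 and the goblet peptide Tff3 -0.29 ± 0.238 (SE). Of 15 enteroendocrine genes 14 were negative with a median of -0.23 (-0.39 for HMLS, -0.10 for TM), or -0.11 pooled without DSS replicate 2 and -0.44 without DSS replicate 6, and 1, the peptide hormone Cck, had an unadjusted p under 0.05 by limma. The difference of Cck was -0.86 ± 0.346 (SE, unadjusted p = 0.0244 by limma). Cck was at 1.64, 1.05, 2.26 and 1.63 FPKM in the HMLS libraries and 3.07, 5.99, 1.71, 5.41 and 2.23 FPKM in the TM libraries, against 6.45, 12.1, 5.45, 1.61 and 5.14 FPKM in the DSS libraries, and DSS6 lay among the low deep sea water libraries while TM5 and TM7 lay among the DSS libraries. Proliferation genes had 23 of 26 negative with a median of -0.12 (-0.35 for HMLS, 0.047 for TM), and 1, Tyms, at an unadjusted p under 0.05. This median turned to 0.13 without DSS replicate 1, and was -0.29 without TM replicate 3 and -0.78 with the percent of reads mapped as a covariate.

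Genes that transport the minerals of deep sea water had differences on both sides of 0. Of 30 magnesium, calcium, potassium and sodium transport genes tested 13 were positive and 17 negative, with a median of -0.012 (0.0995 for HMLS, -0.081 for TM, and -0.048 to 0.066 pooled over left-out libraries) and none at an unadjusted p under 0.05. The intervals of 27 of the 30 lay inside 2-fold. The magnesium channel Trpm6 was at 13.4, 43.2, 22.01 and 10.6 FPKM in the HMLS libraries and 8.63, 24.7, 14.7, 13.2 and 16.5 FPKM in the TM libraries, against 12.8, 17.4, 10.4, 14.5 and 19.5 FPKM in the DSS libraries, with a difference of 0.17 ± 0.288 (SE, 95% interval -0.44 to 0.79). The magnesium transport genes Cnnm3, Slc41a2 and Nipal1 had -0.16 ± 0.106, -0.33 ± 0.228 and 0.34 ± 0.29, and the sodium channel subunit Scnn1g 0.33 ± 0.285 (SE).

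The transport genes Slc26a3, Car4 and Aqp8 had intervals that reached past 2-fold, and that of Car1 did not. The chloride exchanger Slc26a3 had 0.29 ± 0.416, Car1 0.096 ± 0.302, Car4 -0.51 ± 0.446 and the water channel Aqp8 -0.18 ± 0.846 (SE). Aqp8 lay at 10.4 to 469 FPKM in deep sea water and at 15.0 to 174 FPKM in DSS. With the percent of reads mapped as a covariate Car4 was at 0.19. All 22 claudin and junction genes tested had intervals of the pooled difference inside 2-fold, with a median of -0.0018. The pooled interval does not bound each water, as Cldn2 had -0.67 for HMLS and 0.51 for TM. The claudin Cldn4 had 0.43 ± 0.23, with 0.52 for HMLS and 0.35 for TM. It was at 166, 68.3, 85.4 and 179 FPKM in the HMLS libraries and 96.6, 142, 91.1, 86.3 and 101 FPKM in the TM libraries, against 65.4, 84.8, 119.6, 56.03 and 85.5 FPKM in the DSS libraries, and the groups overlapped. The 24 other lists, with 341 members tested, had medians from -0.17 (T cell markers) to 0.17 (mast cell markers), and 2 members higher and 4 lower at an unadjusted p under 0.05.

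**Figure D4:**
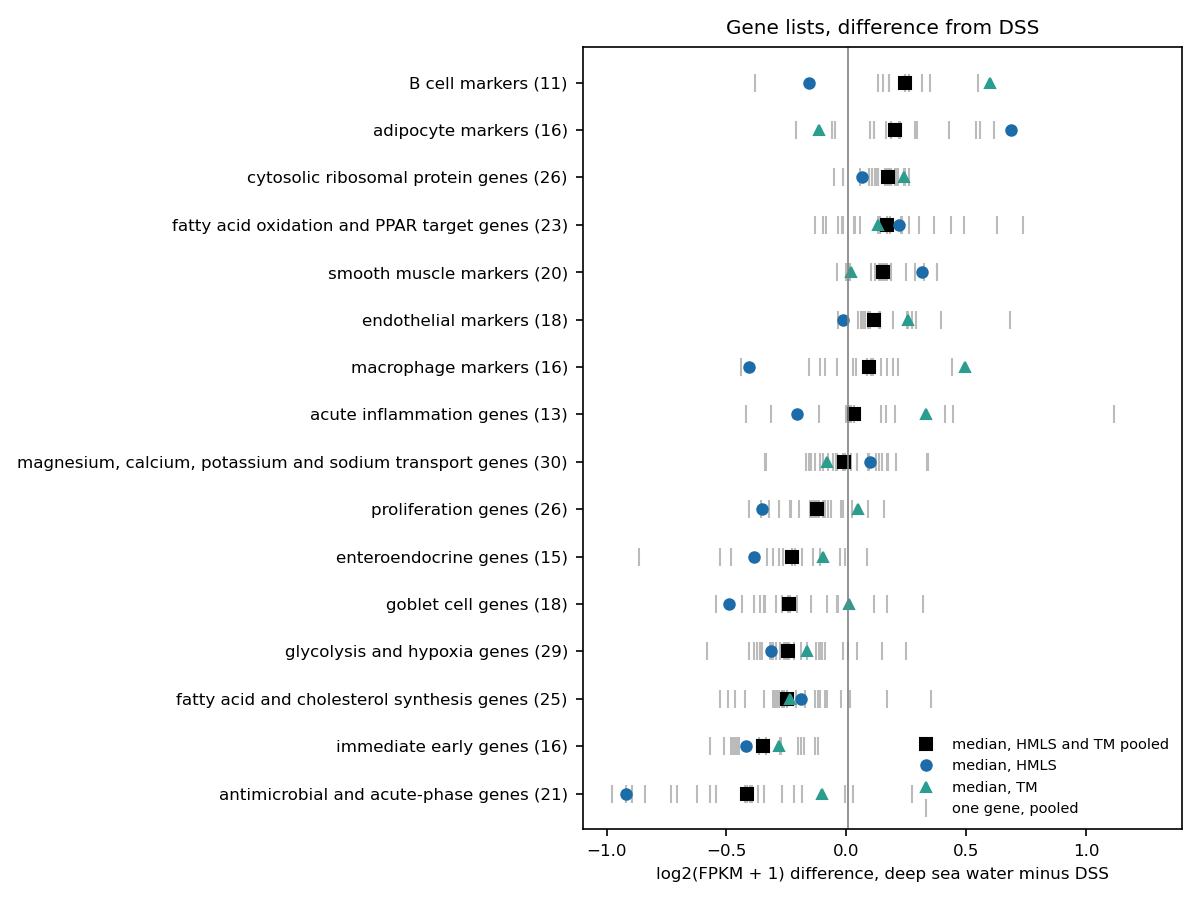
Log2(FPKM + 1) difference from DSS (x axis) for 16 gene lists (y axis, number of genes tested in parentheses). The grey line is the median of all genes, ticks are single genes in the pooled comparison, squares the pooled median, circles the HMLS median and triangles the TM median. Both waters lie left of the grey line for immediate early (-0.42 and -0.28) and glycolysis genes (-0.32 and -0.17), and on either side of it for macrophage (-0.41 and 0.49) and B cell markers (-0.16 and 0.60).

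The main axes of variation among the 14 libraries overlapped between the groups. The first principal component carried 27.6% of the variance and the second 15.3%. Scores on the first averaged -1.97 ± 20.6 in deep sea water (SD, n = 9) and 3.54 ± 30.5 in DSS (SD, n = 5; exact two-sided permutation of libraries, p = 0.689, or 0.928 when adjusted over 3 components). HMLS3 (-35.1), TM5 (-22.3), DSS5 (-39.4) and DSS7 (-18.2) lay at its low end and TM3 (27.01), DSS1 (25.2), DSS2 (25.7) and DSS6 (24.4) at its high end. The 8 genes with the strongest weights at the low end were Zbtb16, Sesn1, Hmox1, Fam43a, Klf15, Gdf15, Pdk4 and Herpud1, and the 8 at the high end Reg4, Apol10a, Hist1h2bm, Akr1c14, Aqp8, Nfe2l2, Batf2 and Hist1h2bh. Those described here were picked from these after their values were seen. At the low end were Zbtb16 and Klf15, transcription factors induced by glucocorticoids, and Pdk4, a kinase that spares glucose in fasting. Zbtb16 was at 80.9, 26.5, 4.23 and 46.8 FPKM in the HMLS libraries and 14.03, 49.8, 9.38, 50.6 and 35.2 FPKM in the TM libraries, against 15.2, 14.8, 83.9, 13.7 and 54.9 FPKM in the DSS libraries. Pdk4 was at 80.2, 54.4, 31.01 and 67.3 FPKM in the HMLS libraries and 16.97, 87.1, 29.8, 114 and 57.5 FPKM in the TM libraries, against 12.3, 21.8, 130.3, 29.8 and 73.4 FPKM in the DSS libraries. The high end held the antioxidant factor Nfe2l2, while its target Hmox1 was at the low end, and the regenerating family gene Reg4, which is known from epithelial injury. Nfe2l2 was at 10.8, 91.4, 119 and 38.6 FPKM in the HMLS libraries and 72.3, 40.5, 89.05, 36.2 and 57.1 FPKM in the TM libraries, against 74.02, 81.9, 6.75, 93.1 and 32.9 FPKM in the DSS libraries. Reg4 was at 2.66, 396, 1.23 and 1.96 FPKM in the HMLS libraries and 707, 3.45, 17.5, 3.18 and 3.92 FPKM in the TM libraries, against 18.4, 5.48, 9.72, 131 and 1.45 FPKM in the DSS libraries. Zbtb16 was highest in HMLS3 and DSS5, Pdk4 in TM7 and DSS5, Nfe2l2 in HMLS7 and DSS6, and Reg4 in TM3 and DSS6, so each was high in some libraries of either group.

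**Figure D5:**
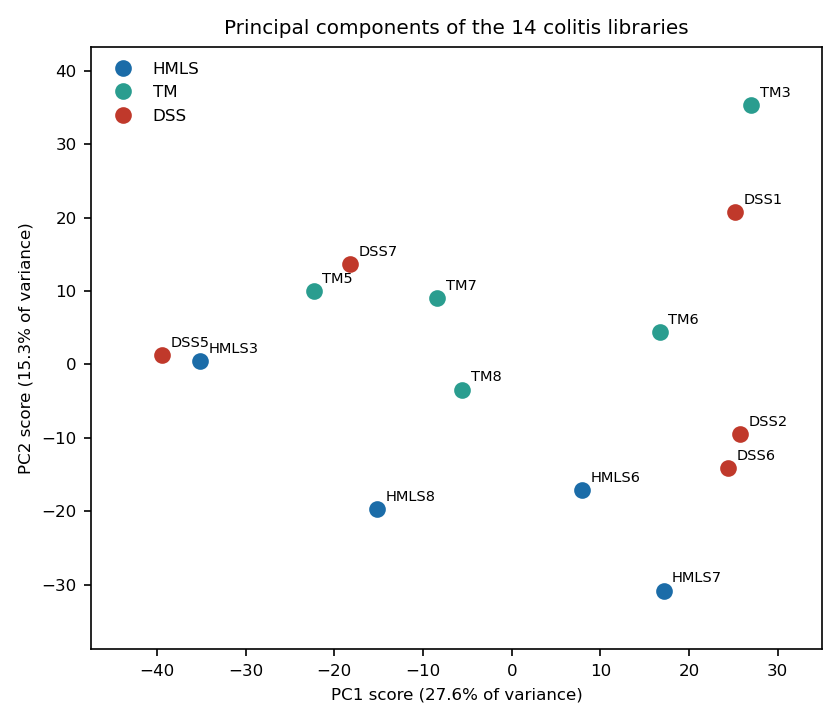
Scores of the 14 libraries on the first (x axis, 27.6% of variance) and second principal component (y axis, 15.3%) of log2(FPKM + 1), with libraries named by group and replicate. The DSS libraries stretch from -39.4 to 25.7 on the first component, and the HMLS and TM libraries lie between and around them.

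Differences of at least 1 on the log2 scale were found for 24 genes, 9 higher and 15 lower in deep sea water, none called. Of these, 14 were small nucleolar, Cajal body or micro RNAs, and 2 of them were listed at 0 in all 5 DSS libraries. The other 10 were Ggt1 and Ccl20, described above, and 8 named after their values were seen. Cyp4b1, a fatty acid hydroxylase, had 1.11 ± 0.615, Glycam1, a ligand for lymphocyte homing, 1.25 ± 0.612 and the nonclassical MHC gene H2-Q8 1.01 ± 0.354. Lower were the secreted glycoprotein Lrg1 (-1.098 ± 0.632), the trypsin inhibitor Spink3 (-1.01 ± 0.56), Rnaset2a (-1.63 ± 0.803), AI747448 (-1.18 ± 0.737) and Gm12238 (-1.25 ± 1.65, all SE). H2-Q8 and Rnaset2a may share reads with near-identical neighbours and are uncertain. Cyp4b1 was at 159, 107, 153 and 162 FPKM in the HMLS libraries and 11.1, 73.8, 122, 145 and 170.2 FPKM in the TM libraries, against 12.4, 69.05, 142, 38.8 and 43.5 FPKM in the DSS libraries. TM3 and DSS1 were the lowest, and the groups overlapped.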

How the data were processed

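Colon RNA of 22 libraries was sequenced, of which 14 enter the comparison and 8 (CON) give levels only. Per the labels, RNA came from flash-frozen colon by Trizol and was turned into TruSeq Stranded Total RNA libraries. Tools listed in the submitters' processing notes, without settings, are bcl2fastq 2.20, Bowtie, TopHat2 2.0.13 and Cufflinks 2.2.0, with the mm10 build. The authors deposited 1 table of 23997 genes, which states no unit and was read here as FPKM on account of Cufflinks in the notes and decimals in the values. Counts of total and mapped reads, and the percent mapped, were deposited per library too. Reads behind a single gene are unknown, so no interval from read counts is given.

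Genes at 1 FPKM or more in at least 4 of the 14 libraries were kept (13341). Values were tested as log2(FPKM + 1) in limma 3.58.1 (R 4.3.3) with an intensity trend and robust variances, 2 groups pooled, and Benjamini-Hochberg adjustment over all 13341 genes at a threshold of 0.05. HMLS, TM and DSS were compared in a 3-group fit. Library measures and component scores were tested by exact two-sided permutation over 2002 splits. The pipeline was tested on simulated data. In each direction the 12 genes of smallest p are named (higher group averaging 1 FPKM or more, without predicted genes, clone names, small RNAs, pseudogenes and antigen receptor segments), with up to 4 of the smallest p in each described list and a panel of 24, and others are marked where they appear. A gene of the fatty acid oxidation list is not reported here. The members and lists were chosen with earlier results of these data known. Positions are from GENCODE M21 on GRCm38.

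The pooled fit did not pair libraries by replicate number. The deviations of same-numbered libraries correlated between -0.331 (HMLS7 and DSS7) and 0.438 (TM5 and DSS5). TM and DSS alone correlated at 0.438, 0.265 and 0.143, so a blocked fit of TM against DSS was also run, and it called 0 genes. These correlations were not set against those of differently numbered libraries, so they do not show whether equal numbers pair the libraries. The TM against DSS values above come from the unpaired 3-group fit. The alternatives were 23 for the pooled comparison: the pseudocount, filters, scalings, variance model, 3 groups, the percent mapped as a covariate, a replicate block and leaving out each library.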

Additional observations from a re-analysis of the deposited data

Results flagged for a closer look

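In 16 of 206 tests of a gene in the 9 deep sea water or the 5 DSS libraries, 1 library lay far from its neighbours relative to the range of its group. Independent, normally spread values would give about 1 in 20. These genes were selected and share the same libraries, so whether the share is an excess was not tested. TM3 was the library in 7 of the 16. TM3 was highest of deep sea water for the hormone receptor Pth1r (2.82 FPKM, nearest 2.09), the G protein subunit Gng10 (20.2, nearest 16.0), Pgk1 of glycolysis (208.4, nearest 153.9), Fdps of sterol synthesis (90.5, nearest 40.9), the chemokine Cxcl1 (10.8, nearest 2.83) and Mcm2 of DNA replication (5.97, nearest 3.09). TM3 was lowest of deep sea water for the carbonic anhydrase Car4 (24.1, nearest 81.2).

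HMLS6 was highest of deep sea water for the chloride exchanger Slc26a3 (497.3 FPKM, nearest 165.5) and lowest for the receptor antagonist Il1rn (13.2, nearest 28.3). HMLS8 was highest for Haus1 (8.74, nearest 5.67). DSS7 was lowest of DSS for Haus1 (1.62, nearest 3.43) and Rpl37 (178.8, nearest 224.5) and highest for the cytokine Il1b (9.17, nearest 1.48). DSS5 was highest of DSS for Eif2a (26.3, nearest 19.9) and lowest for Pkm (242.8, nearest 350.7), and DSS6 lowest for Mylip (4.87, nearest 6.19).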

How the results depend on the processing

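The pooled comparison called 0 genes by limma in each of the 23 alternatives. Genes at an unadjusted p under 0.05 numbered 245 to 297 under 7 of them, 290 with the replicate block among these, 700 with no filter on low values (20967 genes tested), 920 with the percent mapped as a covariate and 202 (without TM replicate 8) to 670 (without DSS replicate 5) when 1 library was left out. Without HMLS replicate 3, calls were 1 for HMLS against DSS (0 to 1 over libraries; Scd1, 1.14) and 3 for HMLS against TM (0 to 3; C1qa -1.88, Lyz2 -1.53, Scd1 1.22). The deep sea water minus DSS difference in genes at 1 FPKM or more ran from -84 to 104 over left-out libraries, and that in the percent of FPKM in the top 10 genes from -2.28 to -1.32, passing its exact permutation test only without DSS replicate 5 (adjusted p = 0.0392). Of 103 named genes 30 changed sign at least once. With the percent mapped as a covariate the log2 differences were Rps6 -0.035, Pcsk1n 0.26, Cnnm3 0.000756, Lyz2 -0.14, Cd79b -0.31, Spib -0.36, H2-Ob -0.14, Lcn2 0.72, S100a9 -0.098 and Car4 0.19. With the replicate block they were Cxcl1 -0.24, Galnt12 0.00987, Pyy 0.24, Insl5 0.54, Scnn1g -0.11, Nipal1 -0.14, Tagln -0.15, Cnn1 -0.23, Des -0.28, Fcgr3 -0.065, Ltb 0.049, S100a8 -0.41, S100a9 -0.31, Il1b -0.51, Ptgs2 -0.71, Aqp8 0.80, Car1 -0.22 and Cldn2 0.21. S100a9 was -0.18 with a pseudocount of 0.1 and -0.047 with 3 groups, Ptgs2 -0.013 with 3 groups and -0.018 with quantile normalization, and Cldn2 0.014 with quantile normalization. Over left-out libraries Aurkb ran from -0.53 to 0.023, Lgmn from -0.41 to 0.045, Lcn2 from -0.78 to 0.65, S100a8 from -0.088 to 0.89, S100a9 from -0.43 to 0.53, Il1b from -0.069 to 0.66, Ptgs2 from -0.20 to 0.34, Mmp10 from -0.43 to 0.12, Aqp8 from -0.65 to 0.21, Car1 from -0.12 to 0.29 and Cldn2 from -0.21 to 0.17. The covariate also moved the list medians of ribosomal (-0.074), goblet (-0.70), proliferation (-0.78), smooth muscle (0.71) and B cell genes (-0.36). With the replicate block the medians of goblet (0.044), smooth muscle (-0.23) and acute inflammation genes (-0.24) turned. The cause was not tested. FPKM without read counts limits what can be said of low genes.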

Other observations

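Further lists held values in which the waters lay on either side of DSS while the pooled median was small. MHC class II genes, which present antigen to helper T cells, had a median of -0.088 over 10 genes tested, with -0.61 for HMLS and 0.39 for TM. Extracellular matrix genes had 0.058 over 24 genes, with -0.19 for HMLS and 0.26 for TM, and matrix metalloprotease genes 0.074 over 14 genes, with -0.38 and 0.33. Xenobiotic metabolism genes had 0.049 over 23 genes, with 0.31 for HMLS and -0.17 for TM, and circadian clock genes -0.049 over 18 genes, with 0.21 and -0.22. None of these genes was called by limma in the pooled comparison, and 1, a clock gene, had an unadjusted p under 0.05.

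Of the 22 unfolded protein response genes tested 20 had lower means in deep sea water, with a median of -0.078 and none at an unadjusted p under 0.05. Nuclear-encoded respiratory chain genes had 13 of 23 positive with a median of 0.013, and the 95% interval of all 23 lay inside a 2-fold change.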
